A study of Mus musculus with 96 samples.

Results

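The hormone receptors described here are the products of 9 mouse genes, taken by symbol from the 54532 genes of a table of transcript abundance along the nephron, and each symbol matched exactly 1 row. They are the glucagon receptor Gcgr, the secretin receptor Sctr, the calcitonin receptor Calcr, the VIP and PACAP receptor Vipr1 and the GLP-1 receptor Glp1r, then the beta-1 adrenergic receptor Adrb1 and the serotonin receptor Htr4, and last the insulin receptor Insr and its relative Insrr. RNA was sequenced from glomeruli and tubule pieces dissected by hand from kidneys of male C57BL/6 mice aged 6 to 8 weeks, kept on ordinary chow and water, with no treatment or altered gene named in the labels. The 93 samples came from 53 mice, counted as mouse numbers within a segment, in 15 groups. Pieces of the same mouse number and segment, at most 3, were averaged before any comparison. The proximal tubule was split into its first convoluted part (PTS1, 3 mice), its cortical straight part (PTS2, 5 mice) and its last straight part (PTS3, 3 mice). Thin limbs were the short-loop descending limb (DTL1), the outer and the inner medullary stretch of the long-loop descending limb (DTL2 and DTL3), with 3 mice each, and the ascending limb (ATL, 4 mice). The medullary thick limb (MTAL, 3 mice), the cortical thick limb (CTAL, 5 mice), the distal convoluted tubule (DCT, 3 mice) and the connecting tubule (CNT, 3 mice) led to the cortical (CCD, 5 mice), outer medullary (OMCD, 4 mice) and inner medullary (IMCD, 3 mice) collecting duct, and the glomerulus had 3 mice. A piece holds every cell type of its segment. Levels are in TPM, a relative transcript abundance corrected for gene length that the authors computed, given as mean ± SD over mice. TPM keep no read number, so depth is unknown.

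Gcgr, Sctr, Calcr, Vipr1 and Glp1r belong to class B of the G protein-coupled receptors, whose peptide ligands lodge in a large outer domain, and these receptors couple mainly to the stimulatory G protein that raises cyclic AMP. Adrb1, which binds noradrenaline and adrenaline, and Htr4, which binds serotonin, reach the same second messenger from class A. Insr and Insrr are receptor tyrosine kinases: Insr binds insulin, and Insrr is known in the kidney as a sensor of alkaline fluid outside the cell that is not activated by insulin. In the tubule, cyclic AMP is the main signal by which hormones adjust salt and water transport in the thick limb and beyond, while insulin acts on transport and glucose handling in most segments.

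DCT, DTL1 and the glomerulus carried markers of their tissue. The sodium chloride cotransporter Slc12a3 averaged 5781.7 TPM in DCT, the urea transporter Slc14a2 7555.1 TPM in DTL1, and Ren1, the renin of the cells at the glomerular pole, 1275.8 TPM in the glomerulus. Marker lists of other segments also had a signal in thin limbs. The proximal list summed to 2524.7 TPM in DTL1, the principal cell list to 1753.0 TPM in DTL3 and the thick limb list to 1503.4 TPM in ATL. Some groups also held many receptor genes of the nose: of 1979 odorant and vomeronasal receptor genes, 403 to 898 were at 1 TPM or more in each glomerular mouse, 753 to 925 in DTL1, 274 to 389 in DTL2, 504 to 556 in DTL3 and 76 to 253 in OMCD. In ATL the count was 33 and 20 in mice 2 and 3 against 601 and 703 in mice 4 and 6. It lay between 12 and 31 in PTS1, between 3 and 25 in IMCD and at 6 or fewer in the mice of every other group. Several of the low receptor values in these groups are therefore given with the level that those foreign genes reached.

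The 9 receptors were distributed in very different ways. Insr was found in every mouse, between 5.29 and 79.0 TPM. Gcgr averaged 490.2 TPM in the cortical thick limb, and Insrr 402.6 TPM in the connecting tubule and 352.5 TPM in the cortical collecting duct. Htr4 reached 73.9 TPM in DTL1 and Sctr 14.5 TPM in CNT, whereas Adrb1, Glp1r, Calcr and Vipr1 stayed below 10 TPM in every group. All 9 differed among the 15 groups by limma's moderated F-test, with Benjamini-Hochberg adjustment over 33793 genes, but so did 93.9% of all genes tested. The largest adjusted p among the members was 5.26e-08, for Vipr1.

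**Figure D1:**
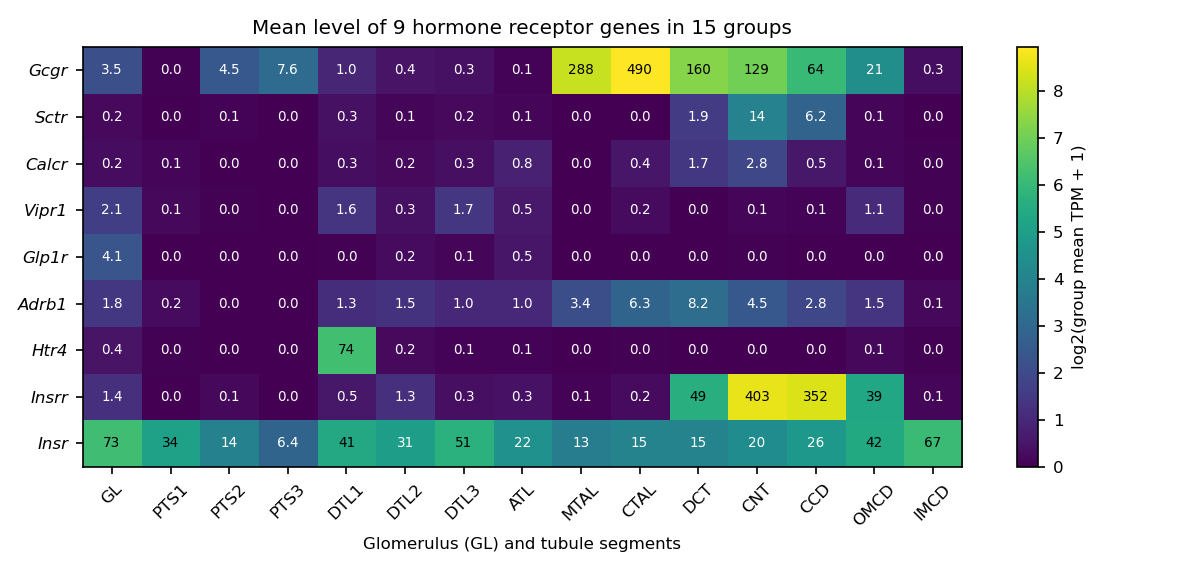
Heat map of the mean level of the 9 receptor genes (rows) in the glomerulus (GL) and 14 tubule segments in order along the nephron (columns); colour is log2(mean TPM + 1) and the number in each cell is the mean TPM. Insr has colour in every column, Gcgr from MTAL to OMCD and more faintly in PTS2, PTS3 and the glomerulus, Insrr from DCT to OMCD and Htr4 in DTL1.

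A stricter test asked whether a receptor was higher in its leading group than in each of the other 14, by at least 1 log2 unit and at an adjusted p below 0.05. It called 3 of 9 receptors against 8.8% of all genes: Htr4 in DTL1, Glp1r in the glomerulus and Sctr in CNT. Htr4 was at 1 TPM in only the 3 DTL1 mice and Glp1r in the 3 glomerular mice and 1 other, so both passed the filter of 1 TPM in 3 mice only through the group in which they were called, and the count of 3 supports nothing about the receptors as a set. In the 14 contrasts between neighbouring segments, with the same 2 thresholds, 30 of 126 receptor-by-contrast tests were called, against 17.5% of such tests over all genes. Gcgr took 8 of these calls, Insr and Insrr 5 each, Sctr and Adrb1 4 each, Htr4 2, and Calcr and Vipr1 1 each. By contrast, 5 of 9 receptors were called between PTS3 and DTL1 (65.5% of all genes), 4 between PTS3 and DTL2 (40%), 3 each between CTAL and DCT (4.35%), CNT and CCD (1.12%), CCD and OMCD (12.1%) and OMCD and IMCD (18.6%), and 2 each between PTS1 and PTS2 (9.57%), ATL and MTAL (28.1%) and DCT and CNT (5.22%). There was 1 call between PTS2 and PTS3 (4.7%), between DTL1 and DTL2 (28.2%) and between DTL3 and ATL (14.6%). No receptor was called between DTL2 and DTL3 or between MTAL and CTAL by limma (0 of 9 each, 9.58% and 3.15% of all genes). Without the threshold of 1 log2 unit, 3 receptors had an unadjusted p below 0.05 between DTL2 and DTL3 (31.1% of all genes), and 3 after adjustment (19.4%). Between MTAL and CTAL 3 had an unadjusted p below 0.05 (13.9%), and 1 after adjustment (6.63%). Over all pairs of groups 365 of 945 tests were called, against 27.9% over all genes.

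**Figure D2:**
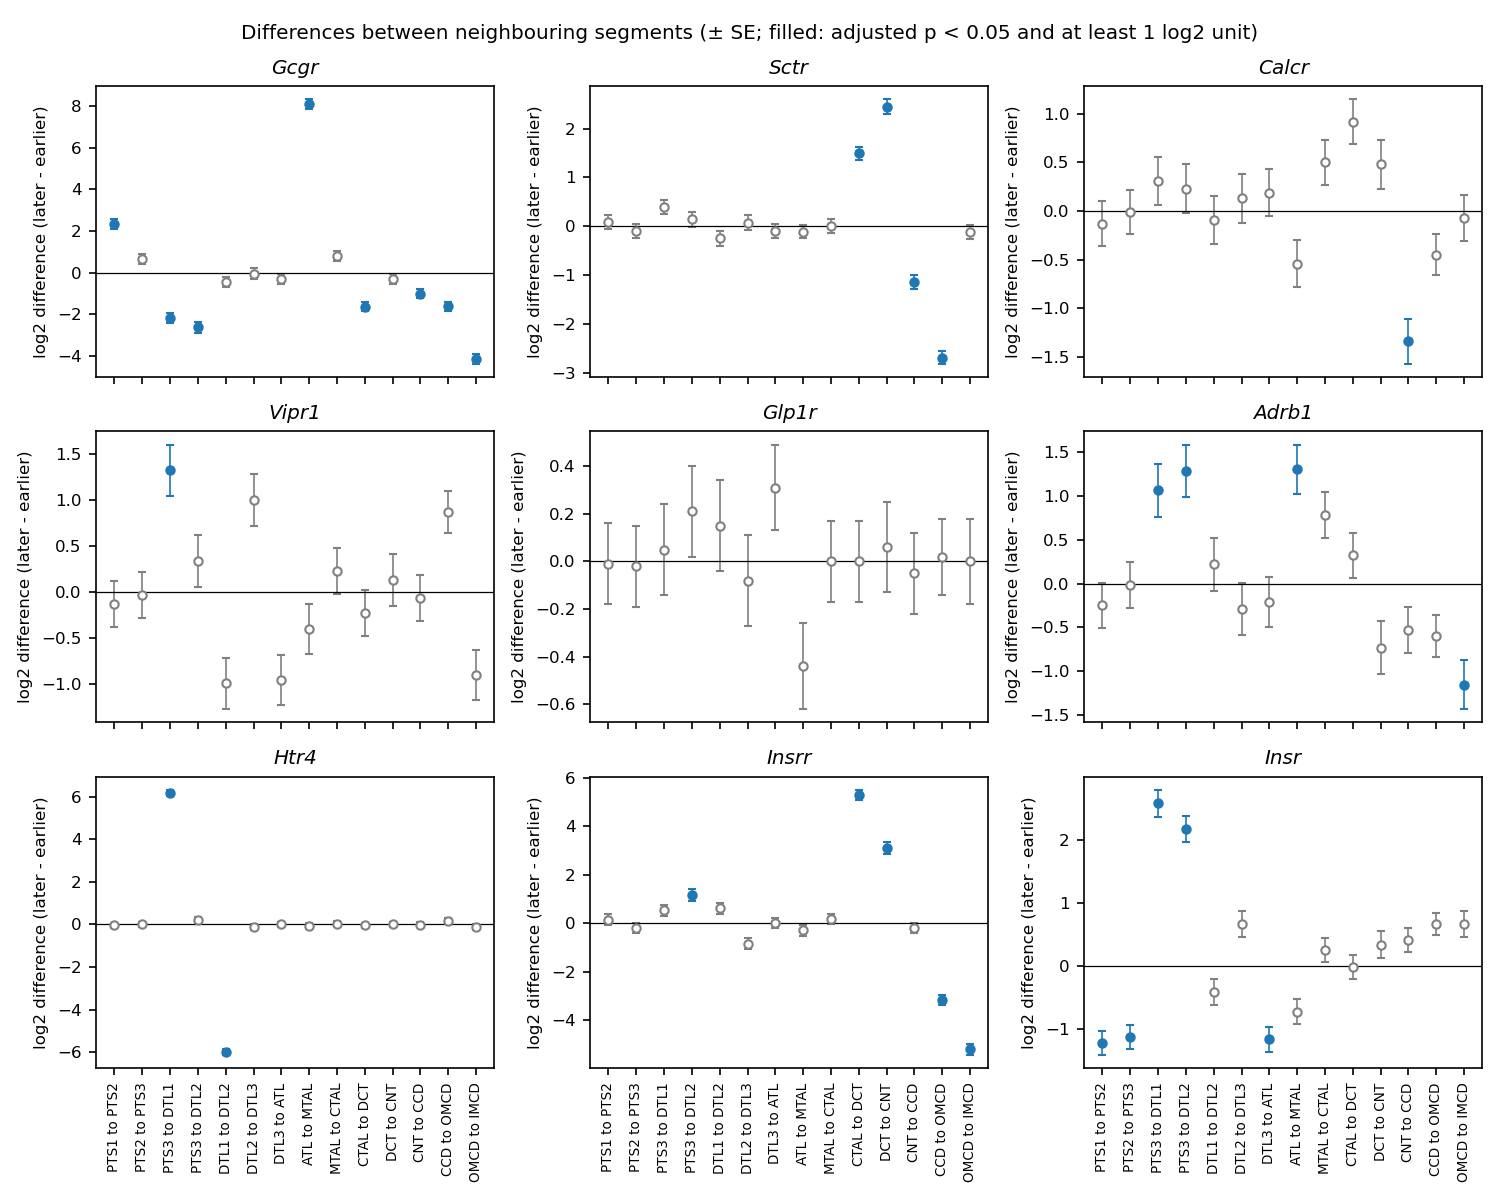
Difference in log2(TPM + 1) between neighbouring segments for each receptor, as later minus earlier segment along the tubule (vertical axis, log2 units, scaled per panel), with its standard error; filled points have an adjusted p below 0.05 and a difference of at least 1. Gcgr has the largest step, 8.08 upward from ATL to MTAL, and Insrr, Sctr and Htr4 show paired steps up and down.

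Gcgr, through which glucagon raises cyclic AMP, was a transcript of the thick limb and the segments that follow it. It measured 504.4, 496.0, 440.2, 509.7 and 500.9 TPM in the 5 CTAL mice (490.2 ± 28.4) and 338.3, 295.3 and 231.9 TPM in MTAL (288.5 ± 53.6). Its mean was lower in each later segment, at 159.7 ± 19.5 TPM in DCT and 129.2 ± 19.3 TPM in CNT. The collecting duct had 63.7 ± 7.43 TPM in its cortical, 20.6 ± 4.99 in its outer medullary and 0.26 ± 0.315 in its inner medullary part. The mice of CTAL, MTAL and DCT did not overlap, those of DCT and CNT did, and those of CNT, CCD and OMCD again did not. In bulk pieces, fewer cells of a type and less RNA per cell cannot be told apart.

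The entry into the thick limb was the steepest step of any receptor. Gcgr was at 0.09, 0.11, 0.0 and 0.0 TPM in the 4 ATL mice, and the difference to MTAL was 8.08 log2 units (SE 0.24, adjusted p = 2.5e-29), and 8.01 with ATL mice 2 and 3 alone. Within the thick limb CTAL stood 0.79 log2 units above MTAL (SE 0.23, adjusted p = 0.0234), short of the threshold of 1. DCT over CNT, by 0.30 (SE 0.25, adjusted p = 0.89), was not called. Called differences were CTAL over DCT by 1.63 (SE 0.23), CCD over OMCD by 1.61 (SE 0.21) and OMCD over IMCD by 4.14 (SE 0.24), with adjusted p of 3.62e-07, 1.03e-07 and 6.79e-19. CNT over CCD by 1.01 (SE 0.23, adjusted p = 0.00695) sat on the threshold, and it fell below it without CNT mouse 1, CCD mouse 1 or CCD mouse 4 (lowest 0.89). It was also not called at a pseudocount of 0.1 (1.02, adjusted p = 0.729) or at a pseudocount of 5 (0.96). The same held with the replicate number as a block (0.99) and with the 93 samples taken as independent (0.97). Thick limb transcripts declined along the same stretch: the summed level of Slc12a1, Umod, Cldn16 and Cldn19 was 43941.2 TPM in CTAL, then 1843.3 in DCT, 149.3 in CNT and at most 42.0 in the collecting duct. For Gcgr, CTAL was 3.07 times DCT, 3.79 times CNT and 7.7 times CCD. The part of thick limb cells in the DCT, CNT and collecting duct values was not tested.

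A lower Gcgr signal lay in the late proximal tubule. It was 7.72, 8.99 and 6.18 TPM in PTS3 and 2.59 to 7.07 TPM in the 5 PTS2 mice (median 4.63), against 0.05, 0.015 and 0.04 TPM in PTS1. PTS2 exceeded PTS1 by 2.34 log2 units (SE 0.23, adjusted p = 1.62e-11), or by 0.89 with a pseudocount of 5, below the threshold. PTS3 exceeded DTL1 by 2.19 and DTL2 by 2.63 (adjusted p = 4.07e-10 and 4.05e-12). At most 1 of the 1979 foreign genes was at 1 TPM in any PTS2 mouse and at most 5 in any PTS3 mouse, and the 4 thick limb markers summed to 14.4 TPM in PTS2 and 1.43 TPM in PTS3. In the glomerulus Gcgr was 3.5 ± 1.38 TPM, where 95.8% of the foreign genes had a lower mean.

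Of genes with a group mean of at least 10 TPM, those whose pattern over the 53 mice was most like Gcgr were Bcat2, a mitochondrial enzyme of branched-chain amino acid breakdown (Pearson's r = 0.949 of log2(TPM + 1)), Slc2a4, the insulin-regulated glucose transporter (0.919), and Casr, the calcium-sensing receptor (0.91). These correlations are descriptions: the mice of a group share their segment. Bcat2 peaked at 551.1 ± 6.59 TPM in MTAL, Slc2a4 at 279.8 ± 34.1 and Casr at 224.9 ± 13.5 TPM in CTAL.

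Among the receptors, Adrb1 was the one most like Gcgr (r = 0.79), and both have a promoter entry in RefSeq (GRCm38.p6), as do 5 of the 9 members. The 250 bases upstream of each start are shown because these 2 receptors had similar patterns. Capitals mark the GC box, GGGCGG or CCGCCC on either strand, which 32.7% of the 250-base stretches of 32851 RefSeq promoters hold.
Gcgr, chr11:120530477-120530726, plus strand: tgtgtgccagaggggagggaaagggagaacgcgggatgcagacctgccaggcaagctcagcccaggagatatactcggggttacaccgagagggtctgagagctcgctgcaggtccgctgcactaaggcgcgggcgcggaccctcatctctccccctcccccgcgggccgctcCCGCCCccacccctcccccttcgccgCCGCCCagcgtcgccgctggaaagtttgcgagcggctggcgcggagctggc
Adrb1, chr19:56721867-56722116, plus strand: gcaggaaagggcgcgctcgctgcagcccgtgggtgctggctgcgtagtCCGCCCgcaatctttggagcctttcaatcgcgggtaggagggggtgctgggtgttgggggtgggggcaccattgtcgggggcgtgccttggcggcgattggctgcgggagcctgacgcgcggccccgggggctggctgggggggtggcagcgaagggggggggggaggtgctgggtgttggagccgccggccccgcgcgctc
The Gcgr stretch had 70.4% G and C and 2 GC boxes, the Adrb1 stretch 74.0% and 1. Neither held a TATA box (TATAAA, in 12.4% of promoters), a full cyclic AMP response element (TGACGTCA, 1.55%), an E-box (CACGTG, 6.02%), a forkhead motif (TGTTTAC, 3.17%) or an extended nuclear receptor half-site (TCAAGGTCA, 0.387%), each searched on both strands. These are matches of letters and say nothing of binding.

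Sctr, the receptor for secretin, averaged 1 TPM or more only in 3 consecutive segments. It measured 14.9, 14.5 and 14.2 TPM in CNT (14.5 ± 0.358), 4.43 to 8.93 TPM in the 5 CCD mice (6.17 ± 1.68, median 5.65) and 1.81, 2.05 and 1.9 TPM in DCT (1.92 ± 0.122). The mice of these 3 groups did not overlap, and no other group exceeded 0.312 TPM on average. Sctr was at 0 in all mice of PTS3, MTAL and IMCD.

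Every step around CNT was called. DCT exceeded CTAL by 1.49 log2 units (SE 0.14, adjusted p = 7.02e-12), CNT exceeded DCT by 2.45 (SE 0.15, adjusted p = 6.66e-17) and CCD by 1.14 (SE 0.14, adjusted p = 1.45e-07), and CCD exceeded OMCD by 2.69 (SE 0.13, adjusted p = 3.22e-21). As fold of mean TPM, CNT was 2.36 times CCD and 7.58 times DCT. Highest in CNT was a rare call, met by 0.0148% of all genes (5 genes), but for Sctr it depended on the pseudocount, as did the step from CTAL to DCT (0.46 at a pseudocount of 5): the margin over CCD was 1.26 with an adjusted p of 1.0 at a pseudocount of 0.1, and 0.82 at a pseudocount of 5. Over the alternatives that leave out 1 mouse at a time it was 1.05 to 1.27.

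The closest patterns to Sctr were those of Hmx2 (r = 0.97 over 53 mice), a homeobox factor, Kcne1 (0.965), a potassium channel subunit, and Slc26a4 (0.954), the chloride-bicarbonate exchanger pendrin. Hmx2 and Slc26a4 stand in the list of type B intercalated cell markers, with Slc4a9 and Spink8. That list summed to 5899.3 ± 329.5 TPM in CNT, 3984.3 ± 591.7 in CCD, 593.6 ± 35.2 in DCT and at most 387.4 TPM in any other group, with Spink8 giving nearly all of that last value (IMCD). Sctr per unit of Slc26a4 was 0.00712 ± 0.000774 in DCT, 0.00593 ± 0.000616 in CNT and 0.00345 ± 0.000263 in CCD. This ratio is a description, and the part of the number of type B cells in each piece was not tested.

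**Figure D3:**
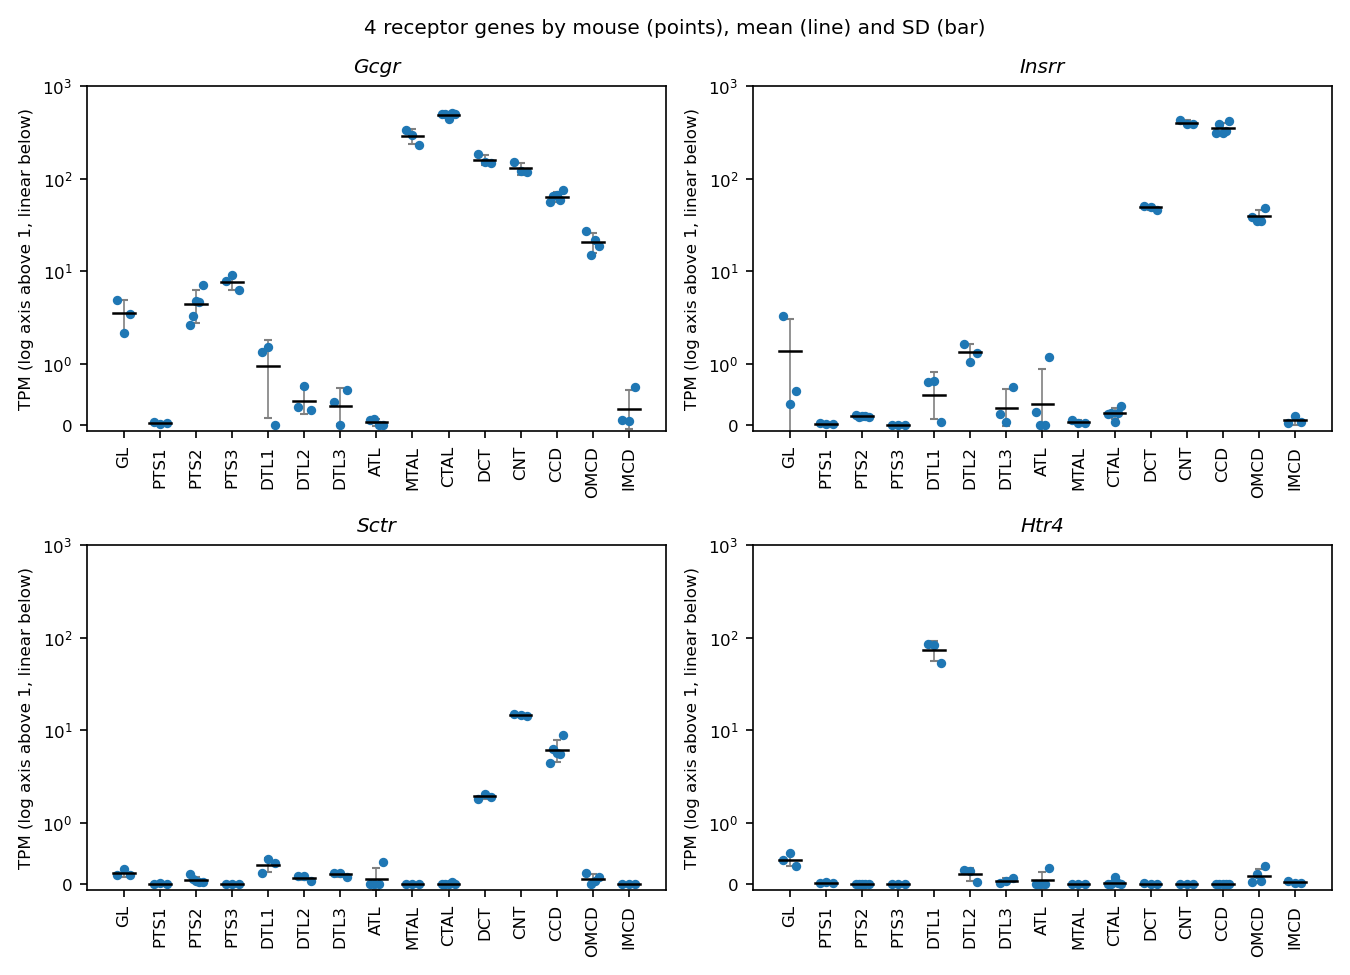
Level of Gcgr, Insrr, Sctr and Htr4 in TPM in each mouse (points) by group, with the group mean (line) and SD (bar); the vertical axis is logarithmic above 1 TPM and linear below. Gcgr declines from CTAL to OMCD, Insrr and Sctr rise from DCT to CNT, and Htr4 exceeds 50 TPM in each of the 3 DTL1 mice and lies below 1 TPM in all other mice.

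Calcr, which binds calcitonin and, together with the RAMP proteins, amylin, was low but placed. It reached 2.98, 2.46 and 2.83 TPM in CNT (2.76 ± 0.268) and 1.61, 1.95 and 1.53 TPM in DCT (1.7 ± 0.219). The mice of CNT and DCT did not overlap, but the difference of 0.48 log2 units was not called (SE 0.25, adjusted p = 0.34). CNT exceeded CCD by 1.34 (SE 0.23, adjusted p = 0.00015), a difference of 0.50 with a pseudocount of 5, and DCT exceeded CTAL by 0.92 (SE 0.23, adjusted p = 0.00423), short of the threshold of 1. In CTAL it was 0.075 to 0.91 TPM (median 0.36) and in MTAL 0.0 TPM in all 3 mice.

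Only 7 of 53 mice had Calcr at 1 TPM or more, and 6 of these were the CNT and DCT mice. The seventh was ATL mouse 4, at 2.88 TPM against 0.0, 0.0 and 0.16 TPM in the other ATL mice, and it is 1 of the 2 ATL mice rich in foreign receptor genes (601). In CNT and DCT no more than 3 foreign genes were at 1 TPM in any mouse. In CNT Ramp2 was 18.7 ± 1.02 TPM, Ramp3 13.6 ± 0.681 TPM and Ramp1 0.96 ± 0.22 TPM, and in DCT they averaged 20.2, 13.1 and 0.297 TPM. The related receptor Calcrl, which makes the CGRP and adrenomedullin receptors with them, was 3.86 ± 0.0569 TPM in CNT and 187.8 ± 23.5 TPM in the glomerulus, where Ramp2 was 580.1 ± 25.8 TPM. The endothelial list summed to 189.8 TPM in CNT and 4270.9 TPM in the glomerulus, and the part of endothelial cells in these values was not tested.

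Glp1r, the receptor for the gut hormone GLP-1, was measured above 1 TPM in all 3 glomerular mice and in 1 other mouse. Its glomerular values were 2.9, 3.55 and 5.75 TPM (4.07 ± 1.49). The other mouse was ATL mouse 6, at 1.57 TPM, with 703 foreign receptor genes at 1 TPM, and the remaining 49 mice lay at 0.555 TPM or lower, 35 of them at 0. Glp1r passed the filter of 1 TPM in 3 mice only through the glomerular mice, so the p-value and share that follow are descriptions and support no conclusion. The glomerulus exceeded ATL, the next group, by 1.86 log2 units (SE 0.18, adjusted p = 1.36e-11 by the intersection-union test), a call that 3.22% of all genes met for the glomerulus. The margin fell to 0.73 with a pseudocount of 5 and to 0.85 after quantile normalization, below the threshold of 1.

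The glomerular level of Glp1r lay within the range that foreign genes reached there: 96.7% of the 1979 had a lower mean, their 95th percentile was 3.14 TPM and their highest mean 28.3 TPM. Mice 1, 2 and 3 had 898, 678 and 403 foreign genes beside 2.9, 3.55 and 5.75 TPM of Glp1r, and the part of this background in the Glp1r value was not tested. The glomerular pieces held renin cells and smooth muscle, with Ren1 at 1275.8 ± 399.8 TPM and a summed list (Ren1, Akr1b7, Acta2, Myh11, Tagln and Cnn1) of 1319.9, 1496.5 and 2197.0 TPM in mice 1, 2 and 3, against at most 14.8 TPM in the mean of any other group. In the same mice the leukocyte list (499.5, 565.4 and 742.6 TPM), the podocyte list (8981.6, 9963.1 and 10579.1 TPM) and the erythroid list (170.1, 341.4 and 492.3 TPM) had the same order, and the endothelial list (4308.4, 4278.9 and 4225.3 TPM) the opposite one. The part of any of these cells in the Glp1r value was not tested. Of the 14 neighbouring tubule contrasts limma called 0 for Glp1r, and 1 had an unadjusted p below 0.05.

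Vipr1, a receptor shared by VIP and PACAP, had no group that stood apart. It was 2.65, 2.35 and 1.45 TPM in the glomerulus (2.15 ± 0.624), 1.66 ± 0.904 TPM in DTL3, 1.61 ± 0.554 in DTL1 and 1.13 ± 1.09 in OMCD, and the ranges of these groups overlapped. Only 10 of 53 mice reached 1 TPM, all in groups or mice with many foreign receptor genes: 3 glomerular, 2 DTL1, 3 DTL3, 1 OMCD and 1 ATL mouse. The ATL mouse was mouse 6 at 2.05 TPM, and the OMCD mouse was mouse 2 at 2.7 TPM. The foreign genes below Vipr1 in mean level were 88.0% in the glomerulus, 87.1% in DTL3, 65.2% in DTL1 and 95.1% in OMCD.

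The single call for Vipr1, DTL1 over PTS3 by 1.32 log2 units (SE 0.28, adjusted p = 6.05e-05), was shared by 61.8% of all genes in that direction. All genes had a median difference of 1.33 there. With a pseudocount of 5 the difference for Vipr1 was 0.39, below the threshold. After quantile normalization it turned to 0.23 in favour of PTS3 (adjusted p = 0.418), and the F-test for Vipr1 over 15 groups gave an adjusted p of 0.0585. The relatives Vipr2 and Adcyap1r1, the PACAP receptor, were at most 1.1 ± 0.747 TPM (glomerulus) and 1.23 ± 0.162 TPM (DTL1).

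**Figure D4:**
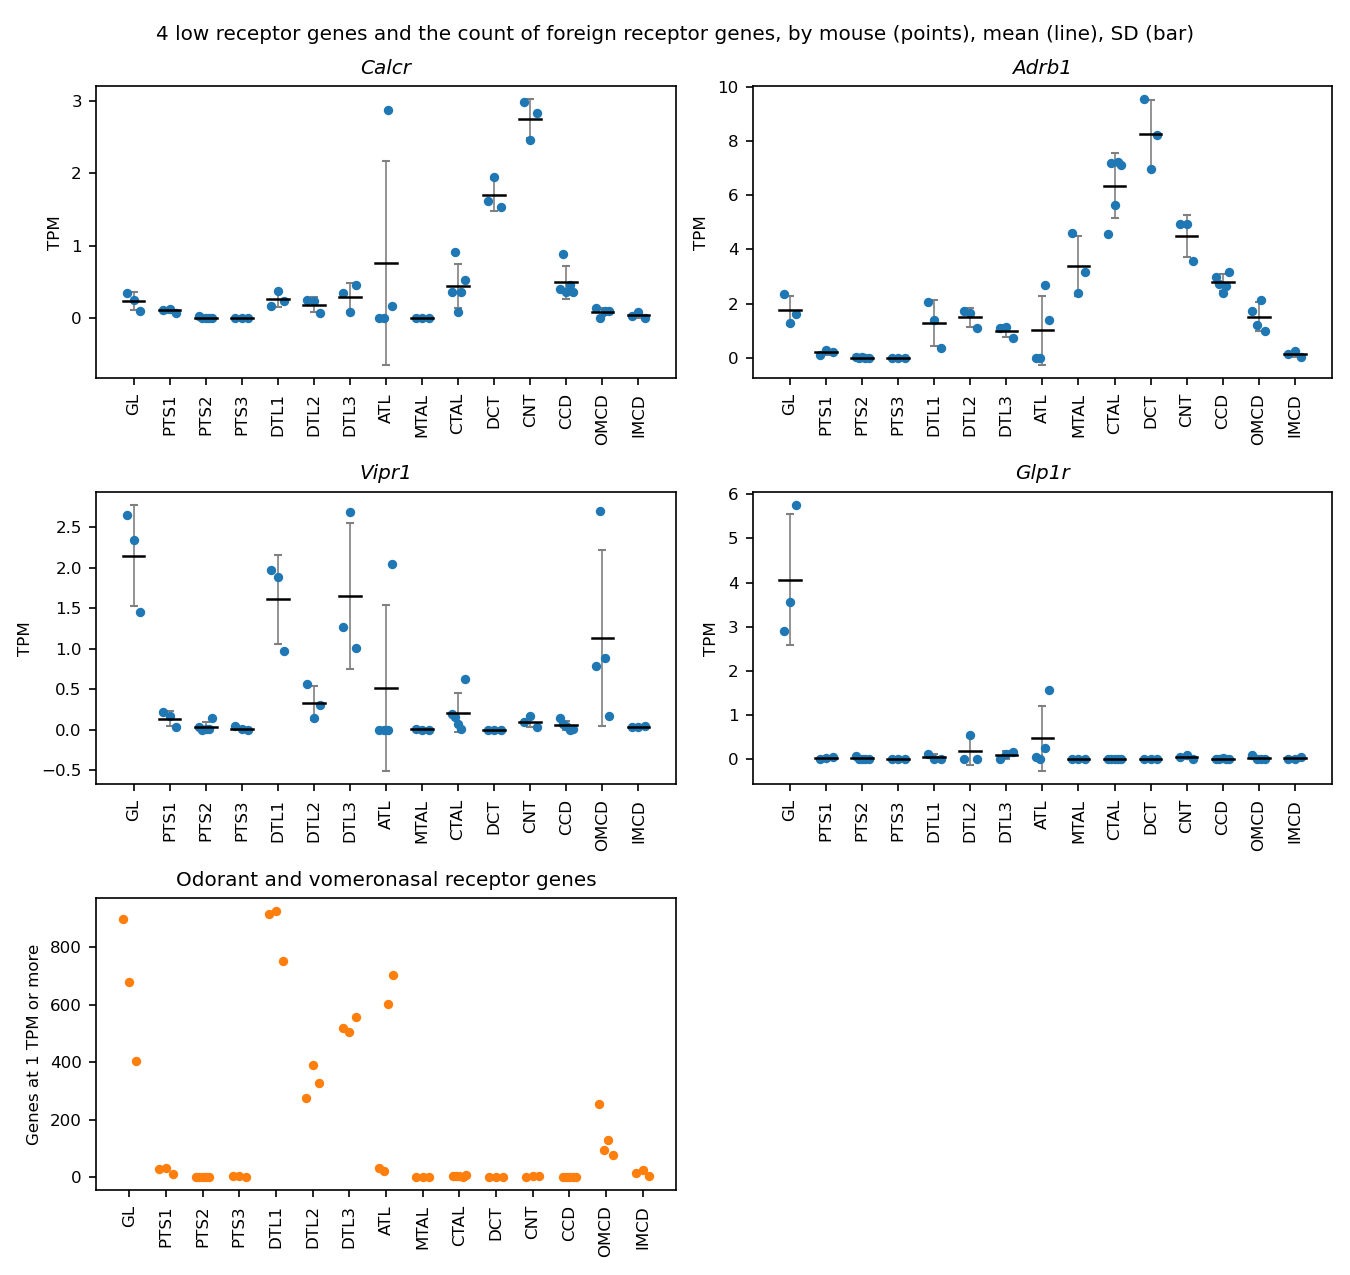
Level of Calcr, Adrb1, Vipr1 and Glp1r in TPM in each mouse (blue points) with the group mean (line) and SD (bar), and below them the number of odorant and vomeronasal receptor genes at 1 TPM or more in each mouse (orange). Calcr and Adrb1 peak in CNT and DCT, where that number is 3 or fewer, while Vipr1 and Glp1r peak in the glomerulus, where it is 403 to 898.

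Adrb1, the beta-1 adrenergic receptor, was present at low levels from MTAL to CCD, with its highest mean in DCT. It measured 9.53, 6.96 and 8.22 TPM in DCT (8.23 ± 1.29), 4.56 to 7.21 TPM in the 5 CTAL mice (6.34 ± 1.2, median 7.12), 4.95, 4.93 and 3.58 TPM in CNT, 4.59, 2.41 and 3.15 TPM in MTAL and 2.38 to 3.17 TPM in CCD (2.78 ± 0.308). Each neighbour in this order of levels overlapped the next, and no such pair was called. Across the stretch DCT did not overlap with MTAL or CCD: it exceeded MTAL by 1.1 log2 units (SE 0.30, adjusted p = 0.00686) and CCD by 1.27 (SE 0.26, adjusted p = 0.000233), or 2.43 and 2.96 times in mean TPM. Those pairs were called for 6.58% and 8.25% of all genes. In these 5 groups at most 6 foreign genes were at 1 TPM in any mouse.

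Before this stretch, the ATL mice split. ATL mice 2 and 3 were at 0.0 TPM, and mice 4 and 6, with 601 and 703 foreign genes, at 2.67 and 1.39 TPM. With all 4 mice MTAL exceeded ATL by 1.3 log2 units (SE 0.28, adjusted p = 0.000171). The difference was 2.08 with the pair low in foreign genes and 0.51 with the other pair (adjusted p = 0.0558), so the call was lost without mice 2 and 3. After it, OMCD exceeded IMCD by 1.15 (SE 0.28, adjusted p = 0.00097), which 15.2% of all genes did, and the value was 0.97 after median ratio rescaling and 0.49 after quantile normalization. The OMCD level was 1.52 TPM, where 97.3% of the foreign genes had a lower mean. In the proximal straight tubule Adrb1 was 0.03 TPM or lower in every mouse, and DTL1 and DTL2 exceeded PTS3 by 1.06 (SE 0.30, adjusted p = 0.00129) and 1.28 (SE 0.30, adjusted p = 0.000297), against a median of all genes of 1.33 and 0.71. The level was 1.27 TPM in DTL1, where 57.7% of the foreign genes had a lower mean, and 1.5 TPM in DTL2, where 92.4% had. The DTL1 difference was 0.78 without DTL1 mouse 1, 0.89 after median ratio rescaling and 0.05 after quantile normalization (adjusted p = 0.851), and the DTL2 difference was 0.49 after quantile normalization. With a pseudocount of 5 all 4 Adrb1 calls between neighbouring segments fell below the threshold, to between 0.31 and 0.49.

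Genes most like Adrb1 in pattern were Matn4 (r = 0.931), a matrix protein, Slit2 (0.917), a secreted guidance protein, and Syt17 (0.915), a synaptotagmin.

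Htr4, a serotonin receptor, was a transcript of DTL1, at 85.3, 83.2 and 53.3 TPM in mice 1, 3 and 5. In the other 50 mice it was at most 0.5 TPM, and 23 of them were at 0. DTL1 exceeded PTS3 by 6.19 log2 units (SE 0.13, adjusted p = 4.64e-34) and DTL2 by 5.99 (SE 0.13, adjusted p = 2.33e-33). The margin over the next group, the glomerulus, was 5.61 to 5.94 in the 53 fits that each left out 1 mouse. Only the fits without a DTL1 or glomerular mouse could change it. Being highest in DTL1 was a call made for 2.9% of all genes. Htr4 passed the filter of 1 TPM in 3 mice only through the DTL1 mice. Its p-values and this share are therefore descriptions and support no conclusion.

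The DTL1 mice also carried many foreign receptor genes, 916, 925 and 753 in mice 1, 3 and 5, with a 95th percentile of 6.21 TPM and a highest mean of 38.5 TPM over the 1979. Htr4 lay above that highest mean. Rbp4 (r = 0.99), a retinol carrier, Corin (0.983), a protease that matures natriuretic peptides, and Irx4 (0.981), a homeobox factor, had the most similar pattern, with means of 33.4 ± 14.9, 882.8 ± 364.1 and 13.7 ± 2.58 TPM in DTL1.

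Insr, the insulin receptor, was the receptor found everywhere, and its order over the groups was fine-grained. The glomerulus (79.0, 68.2 and 71.5 TPM, 72.9 ± 5.56) and IMCD (56.8, 71.1 and 74.2 TPM, 67.4 ± 9.26) stood highest. PTS3 stood lowest, at 5.29, 7.36 and 6.5 TPM (6.38 ± 1.04), and did not overlap with any other group. The glomerulus and IMCD differed by 0.12 log2 units (SE 0.21, adjusted p = 0.603), and the sign turned with the scaling, to 0.22 in favour of IMCD after median ratio rescaling and 0.25 after quantile normalization. Of the 14 steps in the order of levels, 13 joined groups whose mice overlapped, the exception being MTAL over PTS3 by 0.96 (SE 0.21, adjusted p = 0.000206).

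Along the proximal tubule Insr fell in 2 steps. It was 35.6, 32.7 and 33.3 TPM in PTS1 (33.9 ± 1.54), 13.0 to 16.5 TPM in PTS2 (14.2 ± 1.36, median 14.1) and 6.38 ± 1.04 TPM in PTS3, with no overlap between the 3 groups. PTS1 exceeded PTS2 by 1.21 log2 units (SE 0.19, adjusted p = 1.3e-06) and PTS2 exceeded PTS3 by 1.12 (SE 0.19, adjusted p = 1.25e-05), which 4.46% and 3.94% of all genes did. The second step was 0.96 after median ratio rescaling, 0.68 after quantile normalization and 0.78 with a pseudocount of 5. DTL1 then exceeded PTS3 by 2.58 (SE 0.21, adjusted p = 1.64e-14), against a median of all genes of 1.33, and by 1.57 after median ratio rescaling and 1.09 after quantile normalization. DTL2 exceeded PTS3 by 2.17 (SE 0.21, adjusted p = 3.6e-12), which was 1.24 after median ratio rescaling and 0.92, below the threshold, after quantile normalization. The endothelial list summed to 65.1 TPM in PTS3, 1478.1 in DTL1, 726.5 in DTL2 and 4270.9 in the glomerulus, and the part of endothelial cells in the Insr values was not tested.

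From the distal tubule to the papilla Insr climbed in small steps: 14.9 ± 2.38 TPM in DCT, 19.5 ± 3.84 in CNT, then 26.1 ± 4.54, 42.0 ± 6.45 and 67.4 ± 9.26 TPM along the 3 parts of the collecting duct. No single one of these steps was called, the largest being 0.67 log2 units from CCD to OMCD (SE 0.17, adjusted p = 0.00309) and 0.67 from OMCD to IMCD (SE 0.20, adjusted p = 0.00651). The median of all genes was -0.303 for CCD minus OMCD and 0.319 for OMCD minus IMCD. It thus ran with the first of these Insr steps and against the second. Over its whole length the rise of Insr was called, IMCD over DCT by 2.10 (SE 0.21, adjusted p = 1.54e-11) and over CCD by 1.34 (SE 0.19, adjusted p = 8.52e-08), pairs in which 18.7% and 16.3% of all genes were called in either direction. DTL3 exceeded ATL by 1.16 (SE 0.20, adjusted p = 7.26e-06), but its mice spread from 35.8 to 70.8 TPM, and the difference was 0.89 without DTL3 mouse 2, the highest, and between 0.86 and 0.97 after either rescaling or with ATL mice 4 and 6 alone.

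**Figure D5:**
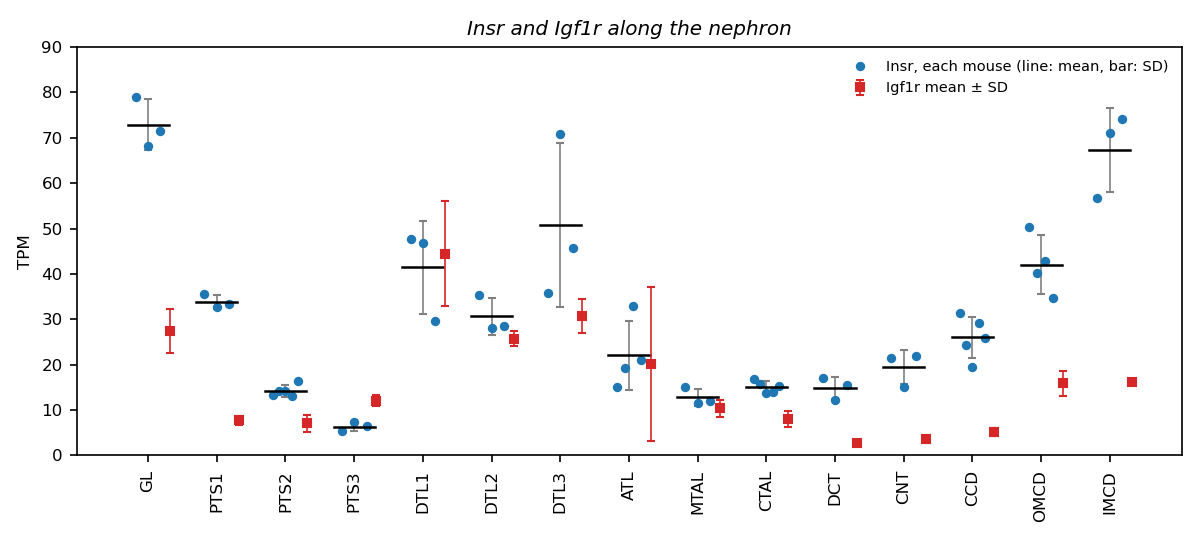
Level of Insr in TPM in each mouse (blue points) with the group mean (line) and SD (bar), and mean ± SD of Igf1r (red squares), by group along the nephron. Insr falls from PTS1 to PTS3 and climbs from DCT to IMCD, and the mean of Igf1r exceeds that of Insr in PTS3 and in DTL1 (44.5 against 41.4 TPM).

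Igf1r, the receptor for IGF-1 that can pair with Insr, followed another course. Its mean was highest in DTL1, at 44.5 ± 11.6 TPM, and lowest in DCT, at 2.82 ± 0.623 TPM. The ratio of Insr to Igf1r within each mouse was 0.525 ± 0.0636 in PTS3, 4.44 ± 0.57 in PTS1, 5.35 ± 0.364 in DCT, 5.29 ± 0.41 in CNT and 5.07 ± 0.541 in CCD. So Insr was the more abundant of the pair in all PTS1, DCT, CNT and CCD mice and the less abundant in all PTS3 mice. It was also the less abundant in DTL1 mouse 5 (ratio 0.513, group 1.0 ± 0.426) and in ATL mouse 4 (0.738). Cap1, a regulator of actin (r = 0.905), Pikfyve, a lipid kinase (0.887), and Hist1h4d, a histone (0.883), were most like Insr in pattern.

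Insrr, the alkali sensor, stood at levels far above Insr in 2 segments. It measured 431.9, 389.0 and 387.0 TPM in CNT (402.6 ± 25.4) and 310.5 to 422.2 TPM in the 5 CCD mice (352.5 ± 50.4, median 329.4). The flanking segments had less: 50.8, 49.6 and 45.9 TPM in DCT (48.8 ± 2.59) and 38.8, 34.5, 34.9 and 48.1 TPM in OMCD (39.1 ± 6.33). CNT and CCD overlapped and differed by 0.20 log2 units (SE 0.21, adjusted p = 1.0), and DCT and OMCD by 0.24 (SE 0.22, adjusted p = 0.383). All other groups averaged 1.38 TPM or less.

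It had steep borders on either side. Insrr rose by 5.29 log2 units from CTAL to DCT (SE 0.21, adjusted p = 2.09e-24) and by 3.11 from DCT to CNT (SE 0.23, adjusted p = 2.77e-14), then fell by 3.16 from CCD to OMCD (SE 0.19, adjusted p = 3.35e-17) and by 5.19 from OMCD to IMCD (SE 0.22, adjusted p = 1.03e-23). In TPM within each mouse, Insrr was 21.2 ± 4.2 times Insr in CNT, 13.9 ± 3.02 times in CCD, 3.32 ± 0.604 times in DCT and 0.958 ± 0.29 times in OMCD. DTL2 also exceeded PTS3, by 1.17 (SE 0.23, adjusted p = 4.4e-05), at 1.32 ± 0.301 TPM in DTL2, where 89.6% of the foreign genes had a lower mean. This difference was 0.28 after quantile normalization (adjusted p = 0.178) and 0.33 with a pseudocount of 5, both below the threshold.

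The genes nearest to Insrr were all known from intercalated cells: Slc4a9 (r = 0.987), a bicarbonate transporter, Hepacam2 (0.98), an adhesion protein, and Foxi1 (0.975), the forkhead factor of these cells. Slc4a9 averaged 865.3 TPM in CCD, 836.9 in CNT, 118.9 in DCT and 67.5 in OMCD. The ratio of Insrr to Slc4a9 was 0.409 ± 0.0164 in CCD, 0.481 ± 0.0144 in CNT and 0.413 ± 0.0339 in DCT, and it ranged from 0.437 to 0.897 over the 4 OMCD mice. Relative to Slc26a4 it was 0.181 ± 0.011 in DCT, 0.164 ± 0.0129 in CNT and 0.201 ± 0.014 in CCD, but in OMCD, where Slc26a4 was 4.4 ± 4.2 TPM, it ranged from 3.56 to 26.4 in the 3 mice with both genes at 1 TPM. Relative to Foxi1, which type A and type B cells share, it was 0.518 ± 0.00808 in CNT, 0.524 ± 0.0735 in CCD and 0.0968 ± 0.0181 in OMCD. The type A list (Slc4a1, Kit, Aqp6 and Dmrt2) was highest in OMCD, at 2653.4 ± 443.9 TPM. These ratios were chosen after the values were seen, and the part of the number of type A and type B cells in each piece was not tested.

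Insrr and Sctr were both present in DCT, CNT and CCD, in differing proportions, whereas OMCD had Insrr at 39.1 TPM and Sctr at 0.0912 TPM. Their correlation over the 53 mice was 0.89, the highest between any pair of the receptors. The ratio of Insrr to Sctr was 25.5 ± 2.25 in DCT and 27.7 ± 1.15 in CNT, and 58.8 ± 8.49 in CCD, with the 5 CCD mice (47.3 to 70.3) all above the 3 CNT mice (26.8 to 29.0). This comparison was also chosen after the values were seen and is given without a test. The SD of log2 values of Insrr was larger between pieces of the same mouse (0.448, 11 degrees of freedom) than between mice (0.181, 11 degrees of freedom). The SD between pieces was also the larger for Gcgr, Adrb1 and Insr, and the smaller for Sctr (0.189 against 0.26) and Htr4 (0.265 against 0.372).

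Beyond the members, 120 of 140 listed pathway genes passed the filter of 1 TPM in 3 mice, and 458 of their 1680 tests between neighbouring segments were called, 27.3%, against 17.5% over all genes. By the F-test all 120 differed among the groups, and so did 93.9% of all genes. Of the 13 listed class B receptors and partners 9 were tested. The most abundant was Pth1r, the parathyroid hormone receptor, at 1088.8 ± 50.0 TPM in the glomerulus, 980.8 ± 180.9 in PTS2, 593.6 ± 99.8 in CTAL and 569.2 ± 114.8 in DCT. Pth1r was at 486.1 to 723.3 TPM in the CTAL mice and averaged 5.22 ± 3.8 TPM in MTAL, a difference of 6.85 log2 units (SE 0.29, adjusted p = 3.03e-22), whereas Gcgr was present in both. From DCT to CNT it fell by 4.49 (SE 0.32, adjusted p = 7.7e-15), the step at which Sctr and Insrr rose. Ghrhr, the receptor for growth hormone releasing hormone, peaked in DTL3 at 13.8 ± 3.52 TPM, below the highest foreign mean of 24.5 TPM there, and exceeded ATL by 3.19 (SE 0.36, adjusted p = 1.67e-09).

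Of 28 further amine receptors 20 were tested. Adra2b, an alpha-2 receptor that lowers cyclic AMP, was proximal, at 48.7 ± 5.86 TPM in PTS2, Adra1a peaked in PTS1 at 17.7 ± 3.1 TPM and Adra2c in DTL3 at 44.5 ± 1.12 TPM. Adra2a was 17.6 ± 2.98 TPM in CCD and 16.2 ± 0.658 TPM in CNT, and it rose from DCT to CNT by 3.79 log2 units (SE 0.24, adjusted p = 1.38e-16). Between CTAL and DCT 4 listed amine receptors were called, 3 of them higher in DCT, with 2.01% of all genes higher in DCT.

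Of the cyclic AMP genes all 39 were tested. Gnas, which encodes the stimulatory G protein, was at 313.5 TPM or more in every group mean, with 1618.9 ± 182.5 TPM in the glomerulus. Pde4c, a phosphodiesterase that degrades cyclic AMP, was 157.1 ± 18.5 TPM in MTAL and 120.0 ± 18.3 in CTAL, the segments of highest Gcgr, and declined to 45.4 ± 7.78 TPM in CCD and 1.76 ± 0.914 in IMCD. It exceeded ATL in MTAL by 4.87 log2 units (SE 0.29, adjusted p = 1.13e-18). Between OMCD and IMCD 15 cyclic AMP genes were higher in OMCD and 2 in IMCD, with a list median of 0.67 against 0.32 for all genes, and 15.2% and 3.4% of all genes called. Prkar1a, the main regulatory subunit of protein kinase A, was among the 15, by 1.18 (SE 0.12, adjusted p = 6.14e-11).

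In insulin signalling, 26 of 27 listed genes were tested. At the step from PTS2 to PTS3, where Insr fell, 5 were higher in PTS2 (Shc1, Pik3ca, Enpp1, Sgk1 and Inppl1, of which Pik3ca, Enpp1 and Inppl1 are named for this count after their values were seen), with a list median of 0.66 against 0.0 for all genes and 3.94% of all genes called that way. Grb14, an adaptor that inhibits the insulin receptor kinase, ran along the distal nephron, at 206.4 ± 8.75 TPM in CCD, 169.0 ± 10.0 in CNT, 153.2 ± 21.8 in OMCD, 150.1 ± 8.77 in DCT and 108.0 ± 9.11 in CTAL, against 0.58 ± 0.255 TPM in PTS2. It fell by 2.24 log2 units from OMCD to IMCD (SE 0.24, adjusted p = 1.92e-10), where Insr was highest of the tubule. Sgk1, a kinase induced by aldosterone and activated through insulin signalling, was 1480.6 ± 322.7 TPM in IMCD and 7.76 ± 3.8 TPM in MTAL.

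Genes for ligands and their handling, of which 26 of 33 were tested, were led by proximal and glomerular transcripts. Slc22a2, an organic cation carrier that takes up amines, was 881.6 ± 75.6 TPM in PTS2, and Dpep1, a membrane dipeptidase, was 502.1 ± 34.8 TPM in PTS1. Dpp4, the peptidase that clips GLP-1, averaged 817.0 TPM in the glomerulus, the group with the highest Glp1r, and 131.9 ± 36.7 TPM in DTL2. Between OMCD and IMCD 10 of the 26 were higher in OMCD, where 15.2% of all genes were, among them Dpp4 by 5.14 log2 units (SE 0.25, adjusted p = 1.21e-21), with a list median of 0.76 against 0.32 for all genes.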

How the data were processed

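RNA from 93 dissected samples was measured. Per the labels' protocols, RNA was isolated with Direct-zol kits, amplified with the SMARTer V4 ultra-low input kit and made into libraries with Nextera XT. The submitters' processing notes name STAR 2.5.4a, RSEM 1.3.0, Cell Ranger 3.0.2 and Seurat, without saying which made the table. The genome build and annotation are not given in the sources used here. The values are TPM computed by the authors, and each deposited column sums to between 999998.6 and 1000190.3. Values are rounded to 0.01 in tubule and 0.1 in glomerulus columns. Such scaling makes a gene's level relative to all others, and TPM keep no depth, so no counting error is given. The authors' segment means were not used, and the 3 single-cell samples were not analysed here. A PTS2 column whose name matched no sample title was used as a mouse without a number.

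Levels printed are means over pieces, then over mice. For tests, pieces of a mouse number and segment were averaged as log2(TPM + 1), and differences on this scale are smaller than the true change where levels are low. Genes with at least 1 TPM in at least 3 mice were kept (33793 genes, all 9 receptors among them). All 53 mice entered 1 model of limma 3.58.1, run in R 4.3.3 (lmFit, eBayes with trend), with the moderated F-test, an intersection-union test (the largest one-sided p of 14 contrasts), 14 neighbouring contrasts and all pairs of groups, two-sided. The Benjamini-Hochberg adjustment ran over all genes within each test, at 0.05, with at least 1 log2 unit except for the F-test. p-values measure the spread between mice. No set test was made. Tables and figures used Python 3.11.15, pandas 2.3.3, numpy 2.4.6, scipy 1.17.1 and matplotlib 3.10.9. The tests were tested on simulated data with known changes.

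Members, lists and tests were chosen with earlier results of these data known. Named genes were all 9 members, the up to 5 listed genes per list with the highest group mean, the nearest relatives of members, and for each member with a group mean of at least 5 TPM the 3 genes of highest correlation, passing over predicted, Rik, mitochondrial, ribosomal and pseudogene names. A few genes that this rule names are not reported here. Marker genes and ratios serve as description. In GENCODE M21 no receptor gene shared exon sequence with another gene. The labels do not say that a mouse number marks the same animal in different segments, and numbers were not used to pair samples. Alternatives were pseudocounts of 0.1 and 5, no filter and a filter of 5 TPM, median ratio rescaling, quantile normalization, other averaging of pieces, a replicate block, each ATL pair alone, no trend, and leaving out each mouse. Leaving out 18 mice with at least 60 foreign receptor genes was added after seeing the data.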

Additional observations from a re-analysis of the deposited data

Results flagged for a closer look

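The values of 1 receptor in 1 group of 4 or 5 mice, with a mean of at least 1 TPM, made a set. Of 17 such sets, 1 held a mouse far from the others: Gcgr in CTAL, where mouse 3 measured 440.2 TPM and the other 4 mice 496.0 to 509.7 TPM. Chance marks about 1 in 20 sets in this way, and sets of the same group share their mice.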

How the results depend on the processing

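Over 12 alternatives, besides leaving out mice, the count of receptors that differed among groups stayed at 9, apart from 8 after quantile normalization and 6 of 6 tested with a filter of 5 TPM. A pseudocount of 5, which compresses low levels, reduced receptors highest in 1 group from 3 to 1 (Htr4), neighbouring calls from 30 to 18, listed pathway calls from 458 to 256 and calls over all pairs from 365 to 215, and quantile normalization reduced the listed calls to 305. Reversed values were the margin of Vipr1 in the glomerulus, -0.10 after quantile normalization, that of Insr, -0.22 after median ratio rescaling and -0.25 after quantile normalization, and Vipr1 between PTS3 and DTL1, 0.23 after quantile normalization. The cause was not tested. These scalings move the median of all genes between PTS3 and DTL1 from -1.334 to -0.929 and -0.018. Of 48 single receptor results, 34 kept their direction and side of the threshold with the pseudocount of 5, 36 after quantile normalization, 43 after median ratio rescaling and 45 at a pseudocount of 0.1.

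With the replicate number as a block the counts were 9, 3, 31, 460 and 370, for receptors that differ, receptors highest in 1 group, neighbouring calls, listed calls and pair calls. The median correlation of deviations was 0.0 over 290 pairs with the same number, the lowest -0.22, while 26 of 51 mice correlated best with a mouse of their own number, a hint from the data and not from the design. Of the 48 single receptor results, 47 kept their direction and side of the threshold under the block, and Gcgr between CNT and CCD (0.99) fell below it. Leaving out each of the 53 mice in turn gave 9 to 9, 3 to 3, 29 to 33, 450 to 469 and 360 to 374. Without the 18 mice rich in foreign genes, an alternative chosen after seeing the data, 10 groups and 7 neighbouring contrasts remained. In them 6 receptors differed among groups (not Glp1r, Htr4 and Vipr1, whose leading groups were gone), and the 13 receptor calls of those contrasts numbered 13 again. Of the groups left only ATL had lost mice, so every difference outside ATL to MTAL stayed the same by construction. The unchanged count is therefore no check on the calls outside ATL to MTAL. Low levels limit Calcr, Vipr1 and Glp1r, and the rounding to 0.1 TPM limits the glomerulus.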
